A study of Mus musculus with 15 samples.

Results

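Cd4, its neighbor Lag3 and 5 transcription factors (Zbtb7b, Runx1, Runx3, Tox and Gata3) were followed through macrophages of the mouse small intestine and blood monocytes. The 5 factors are known from T cells as regulators of Cd4 or of the lineage that carries it. The paper reports that monocytes rarely replenish the macrophages positive for both Tim-4 and CD4. A rise or fall from monocytes is therefore a contrast of populations here. The genes were chosen by symbol and matched to the Ensembl identifiers of the deposited table, which left 7 members of 19456 genes, and each of the 7 passed the filter on low counts. The question was whether the factors that set Cd4 in T cells went with Cd4 in macrophages.

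CD4 is a surface co-receptor that binds MHC class II and brings the kinase LCK to the T cell receptor, and LAG3 is a related inhibitory receptor that also binds MHC class II and is encoded next to CD4. In thymocytes, ThPOK (encoded by Zbtb7b) keeps Cd4 on, whereas RUNX proteins bind a silencer inside the Cd4 gene and turn it off in cells that become cytotoxic. TOX and GATA3 act upstream of ThPOK in the same choice. Macrophages of the intestine are among the cells outside the T lineage that carry CD4 on their surface.

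RNA sequencing was performed on 15 libraries of sorted cells from adult male wild-type C57BL/6 mice with no treatment. There were 3 libraries of Ly6Chi monocytes from peripheral blood. The small intestine gave 3 macrophage subsets with 4 libraries each, which were Tim-4-CD4- (hereafter CD4-), then Tim-4-CD4+, and last Tim-4+CD4+, and values for the 3 subsets keep this order. Cells of 3 mice were pooled for a library, except for monocyte replicate 2, with 4 mice. Tim-4, encoded by Timd4, is a receptor for dying cells. The macrophage gate took cells positive for CD64 and MHC class II and negative for Ly6C, and left out cells stained for T cell receptor β, B220, Ly6G or Siglec F. Because the sort itself used CD4 protein, the Cd4 transcript between a CD4+ and a CD4- subset is a check of the sort, and no test of it is given.

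Libraries held 39388763 to 151510641 counts (median 63249039). The summed level of 6 macrophage genes (Adgre1, Csf1r, Fcgr1, Mertk, Cx3cr1 and Cd68) was 6849 to 9860 CPM (counts per 1000000 counts of the library, scaled by TMM) in the 12 macrophage libraries and 3805 to 4146 CPM in monocytes. Timd4 averaged 355 CPM in the Tim-4+CD4+ subset and 1.70 CPM or less elsewhere. Of the other cells a gate could hold, the summed B and plasma cell list reached 379 CPM and the dendritic cell list 135 CPM (CD4- replicate 3). The epithelium list reached 19.1 CPM, and the mast cell list 14.0 CPM (Kit in the same library) with Cpa3 at 0 in 12 libraries. Innate lymphoid and NK genes summed to 17.5 to 21.3, 12.4 to 17.9 and 7.95 to 11.4 CPM in the 3 subsets. T cell genes are given beside Lag3.

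For the transcription factors, the RefSeq promoter table (GRCm38.p6, 250 bases before to 50 bases after a start site) held 7 windows for 4 members, Zbtb7b, Runx1, Runx3 and Gata3. The core letters of the site that RUNX proteins bind, TGTGGT or its reverse complement ACCACA, were searched on both strands, and they occurred in 3 of the 7 windows and in 16.8% of the 32851 windows of the table. The 3 windows are shown, with the letters in capitals, because they put these letters at a start site of Runx1, of Runx3 and of Zbtb7b. The other window of each of these genes held none of these letters. Which start site the cells used was not tested. The positions are chr3:89387622-89387921 on the minus strand for Zbtb7b, chr16:92826025-92826324 on the minus strand for Runx1 and chr4:135120395-135120694 on the plus strand for Runx3.
Zbtb7b: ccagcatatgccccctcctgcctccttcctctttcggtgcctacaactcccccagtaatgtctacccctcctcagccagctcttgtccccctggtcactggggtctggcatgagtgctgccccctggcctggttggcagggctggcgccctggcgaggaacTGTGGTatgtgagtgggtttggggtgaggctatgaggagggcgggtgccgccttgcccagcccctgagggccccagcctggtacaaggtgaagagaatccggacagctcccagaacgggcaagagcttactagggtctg
Runx1: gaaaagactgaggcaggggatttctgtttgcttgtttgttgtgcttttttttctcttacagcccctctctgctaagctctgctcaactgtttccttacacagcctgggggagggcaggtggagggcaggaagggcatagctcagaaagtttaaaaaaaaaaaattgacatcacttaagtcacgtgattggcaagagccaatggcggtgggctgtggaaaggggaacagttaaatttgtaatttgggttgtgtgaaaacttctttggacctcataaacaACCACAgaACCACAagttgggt
Runx3: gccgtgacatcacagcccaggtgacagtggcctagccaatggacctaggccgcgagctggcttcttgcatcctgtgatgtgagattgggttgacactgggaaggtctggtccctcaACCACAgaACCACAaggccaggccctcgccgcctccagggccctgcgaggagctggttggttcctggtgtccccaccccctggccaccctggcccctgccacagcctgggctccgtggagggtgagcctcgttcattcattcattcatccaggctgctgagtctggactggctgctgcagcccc
The windows shown for Runx1 and Runx3 each held the letters ACCACA in tandem, 8 bases apart. They lay 28 and 36 bases after this start site of Runx1 and 134 and 126 bases before that of Runx3. The window shown for Zbtb7b held TGTGGT once, 89 bases before its start site.

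Cd4 (6:124864692-124888221, minus strand, GRCm38) was close to absent from monocytes, low in CD4- macrophages and high in both CD4+ subsets. Monocytes had 0.205, 0.156 and 0.260 CPM, which were 29, 16 and 14 counts. CD4- libraries had 14.5, 17.1, 39.2 and 20.7 CPM, Tim-4-CD4+ libraries 484, 499, 598 and 541 CPM, and Tim-4+CD4+ libraries 755, 752, 924 and 832 CPM. No library of one population reached the range of another, so the order of the 4 populations was the same for every library, and the sort on CD4 protein was met by the transcript. CD4- replicate 3 had the most Cd4 of its subset. It also had the highest sums of the dendritic cell, B and plasma cell and epithelium lists of that subset. Its mast cell sum was the highest as well, but consisted of Kit alone. The part of these transcripts in its Cd4 level was not tested. Without this library the subset averaged 17.4 ± 3.10 CPM (SD, n = 3), against 22.9 ± 11.2 CPM (n = 4) with it.

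CD4- macrophages, although sorted as negative, had far more Cd4 transcript than monocytes (log2 fold change 6.83 ± 0.37 SE, adjusted p = 6.2e-11 in edgeR's quasi-likelihood test over 15802 genes with Benjamini-Hochberg adjustment, which gives every adjusted p of a gene here). In bulk libraries, few cells with much Cd4 and many cells with little cannot be told apart. Cd4 averaged 531 ± 51.0 CPM in Tim-4-CD4+ and 816 ± 80.9 CPM in Tim-4+CD4+ libraries, a 1.54-fold difference (log2 0.62 ± 0.22 SE, 95% interval 0.16 to 1.08) that did not pass the adjustment (adjusted p = 0.17, unadjusted p = 0.011), although the libraries did not overlap, as was so for 9.63% of all genes. The call turned on the spread lent by the other populations. Without CD4- replicate 3 the difference was 0.63 with adjusted p = 0.0056, and with only the CD4+ subsets in the fit it was 0.61 with adjusted p = 0.0073.

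Lag3 (6:124904361-124911705, minus strand), which lies 16.1 kb from Cd4, was the member whose level rose in both CD4+ subsets over CD4- macrophages. CD4- libraries had 69.1, 73.6, 58.2 and 69.2 CPM, Tim-4-CD4+ libraries 98.4, 128, 132 and 133 CPM, and Tim-4+CD4+ libraries 185, 125, 131 and 133 CPM. Monocytes had 17, 2 and 2 counts, or 0.120, 0.0195 and 0.0372 CPM. All 8 CD4+ libraries lay above the 4 CD4- libraries, and the CD4+ subsets overlapped each other. Of all genes tested, 19.1% were free of overlap between Tim-4-CD4+ and CD4- libraries, and 26.4% between Tim-4+CD4+ and CD4- libraries.

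The rise of Lag3 was 1.82-fold in Tim-4-CD4+ (log2 0.87 ± 0.16 SE, adjusted p = 0.0021) and 2.12-fold in Tim-4+CD4+ macrophages (log2 1.09 ± 0.16 SE, adjusted p = 1.2e-04), both against CD4-. From one CD4+ subset to the other the difference was 0.22 ± 0.16 SE (95% interval -0.12 to 0.56, adjusted p = 0.55). Under every alternative tried, including each library left out in turn, the adjusted p stayed at or below 0.012 for the first and at or below 8.6e-04 for the second of these rises. Lag3 was 1 of 6 members called in each of these comparisons, where Cd4 is left out. Of all genes tested, 10.1% were called in the first of these comparisons and 23.1% in the second. When the CD4+ subsets were compared, 0 of the 7 members were called by edgeR or by DESeq2, 1 had an unadjusted p under 0.05 in edgeR, and 3.41% of all genes were called.

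**Figure D1:**
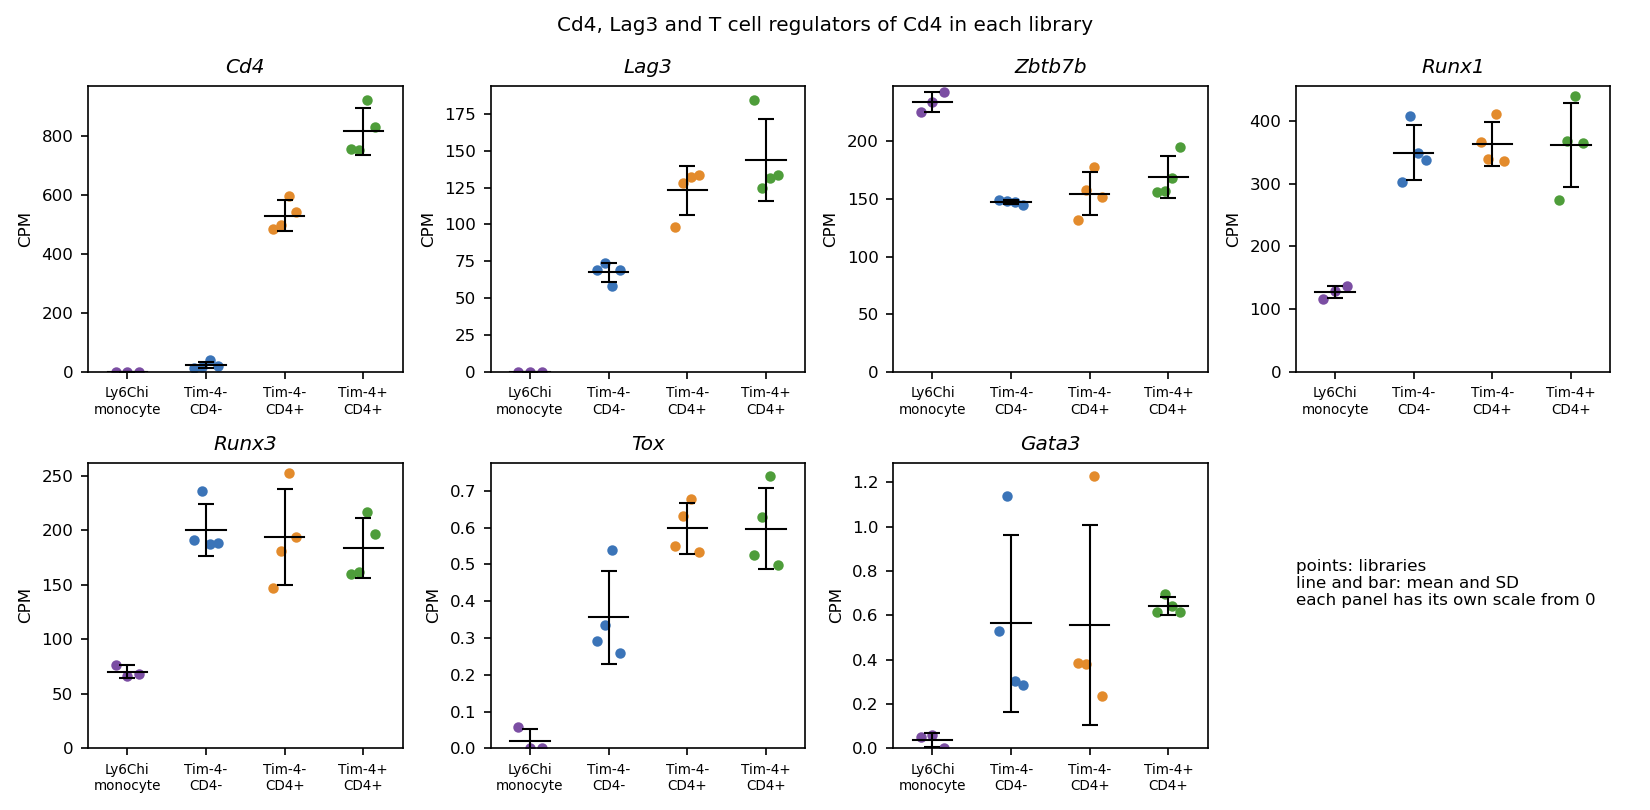
CPM (linear axes from 0, a scale for each gene) of the 7 genes in each library of the 4 populations, with points for libraries and lines and bars for mean and SD. Cd4 climbs in steps to 924 CPM. Lag3 is higher in both CD4+ subsets than in CD4- macrophages, overlaps between the CD4+ subsets, and reaches 185 CPM in 1 library. Runx1 and Runx3 overlap across the macrophage subsets, Zbtb7b is highest in monocytes, and Tox and Gata3 stay at or below 1.23 CPM.

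T cells also express Cd4 and Lag3, and the sum of T cell genes was likewise lowest in monocytes and lower in CD4- than in CD4+ macrophages. Between the CD4+ subsets, Cd4 averaged higher in Tim-4+CD4+ macrophages, and the libraries overlapped both in Lag3 and in the T cell sum. The summed level of 16 T cell genes was 1.71 to 3.80 CPM in monocytes and 7.22 to 12.3, 15.3 to 24.3 and 12.4 to 16.5 CPM in the 3 subsets. The CD4+ subsets therefore stood above the CD4- subset in this sum too, and the part of T cells in the rise of Lag3 was not tested. The ratio of Lag3 to the sum was 5.03 to 9.58, 5.32 to 8.69 and 7.96 to 11.2 in the 3 subsets, which overlap, whereas the ratio of Cd4 to it was 1.39 to 3.39, 24.6 to 35.3 and 45.7 to 67.1. The defining gene Cd3e, a subunit of the T cell receptor complex, averaged 0.787, 2.44 and 1.45 CPM in the 3 subsets. Lag3 counts exceeded Cd3e counts 33.4-fold or more in each macrophage library.

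Within a library, Lag3 and Cd4 changed their balance with the sort. There were 3.47 ± 1.45 Lag3 counts for each Cd4 count in CD4- macrophages, and 0.232 ± 0.0241 and 0.178 ± 0.0454 in the CD4+ subsets (SD, n = 4 each). The step between the first and the others follows from the sort on CD4. With Tim-4+CD4+ set against the other CD4+ subset, the log2 ratio differed by -0.41 (two-sided exact permutation test, p = 0.0857, adjusted p = 0.30 over 7 ratio tests; 0.0286 is the smallest p that 4 against 4 libraries allow).

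Zbtb7b, which encodes the factor that holds Cd4 on in T cells, was higher in monocytes than in macrophages, opposite to Cd4. Monocytes had 226, 234 and 242 CPM. CD4- libraries had 149, 148, 147 and 145 CPM, Tim-4-CD4+ libraries 132, 158, 178 and 152 CPM, and Tim-4+CD4+ libraries 156, 157, 168 and 195 CPM. Every monocyte library stood above every macrophage library, and 67.6%, 70.1% and 68.7% of all genes were likewise free of overlap between monocytes and the 3 subsets. The fall from monocytes was -0.67, -0.60 and -0.47 on the log2 scale in the 3 subsets (SE 0.10 each, adjusted p = 2.0e-05, 5.6e-05 and 5.2e-04). Among macrophages, the libraries of Tim-4+CD4+ and CD4- did not overlap, a state that 26.4% of all genes shared, and the difference of 0.20 ± 0.09 SE (95% interval 0.00018 to 0.40) had an unadjusted p of 0.0498 and did not pass the adjustment (adjusted p = 0.14). Zbtb7b differed by 0.07 ± 0.09 SE between Tim-4-CD4+ and CD4- macrophages (95% interval -0.13 to 0.27, adjusted p = 0.73). An antisense gene, Gm15417, shares 116 exon bases with Zbtb7b and had 1846 counts over all libraries.

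Runx1 and Runx3, whose products bind the silencer of Cd4 in thymocytes, rose from monocytes to each macrophage subset and did not pass the test between subsets. Runx1 had 116, 129 and 136 CPM in monocytes. It had 303, 408, 348 and 337 CPM in CD4-, 367, 339, 412 and 335 CPM in Tim-4-CD4+, and 275, 368, 439 and 365 CPM in Tim-4+CD4+ libraries. The 3 subsets overlapped one another and none overlapped the monocytes, as was so for 67.6%, 70.1% and 68.7% of all genes. The rise of Runx1 from monocytes was 2.75-fold, 2.86-fold and 2.85-fold (log2 1.46, 1.52 and 1.51, SE 0.14 each, adjusted p = 1.5e-07, 8.1e-08 and 7.8e-08).

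Runx3 had 76.8, 66.0 and 68.4 CPM in monocytes. It had 191, 236, 187 and 188 CPM in CD4-, 147, 181, 253 and 194 CPM in Tim-4-CD4+, and 160, 161, 217 and 196 CPM in Tim-4+CD4+ libraries. The subsets overlapped here as well, and the rise from monocytes was 2.85-fold, 2.75-fold and 2.61-fold (log2 1.51, 1.46 and 1.38, SE 0.16 each, adjusted p = 4.7e-07, 5.9e-07 and 1.0e-06).

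Between Tim-4-CD4+ and CD4- macrophages, where Cd4 was 23.2-fold apart, Runx1 differed by 0.06 ± 0.13 SE (95% interval -0.21 to 0.33, adjusted p = 0.86) and Runx3 by -0.05 ± 0.14 SE (95% interval -0.36 to 0.26, adjusted p = 0.90). For Tim-4+CD4+ against CD4- macrophages the differences were 0.05 (95% interval -0.22 to 0.32) for Runx1 and -0.13 (-0.43 to 0.18) for Runx3. The intervals of both genes end below those of Lag3, which began at 0.52 and 0.74 in the same comparisons. Within CD4+ macrophages Runx1 differed by -0.01 (-0.28 to 0.26) and Runx3 by -0.08 (-0.39 to 0.23), and the sign of each of these Runx1 differences changed when 1 library was left out (Tim-4-CD4+ replicate 3 for the first, at -0.011, Tim-4+CD4+ replicate 3 for the second, at -0.045, and Tim-4+CD4+ replicate 1 for the last, at 0.11).

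**Figure D2:**
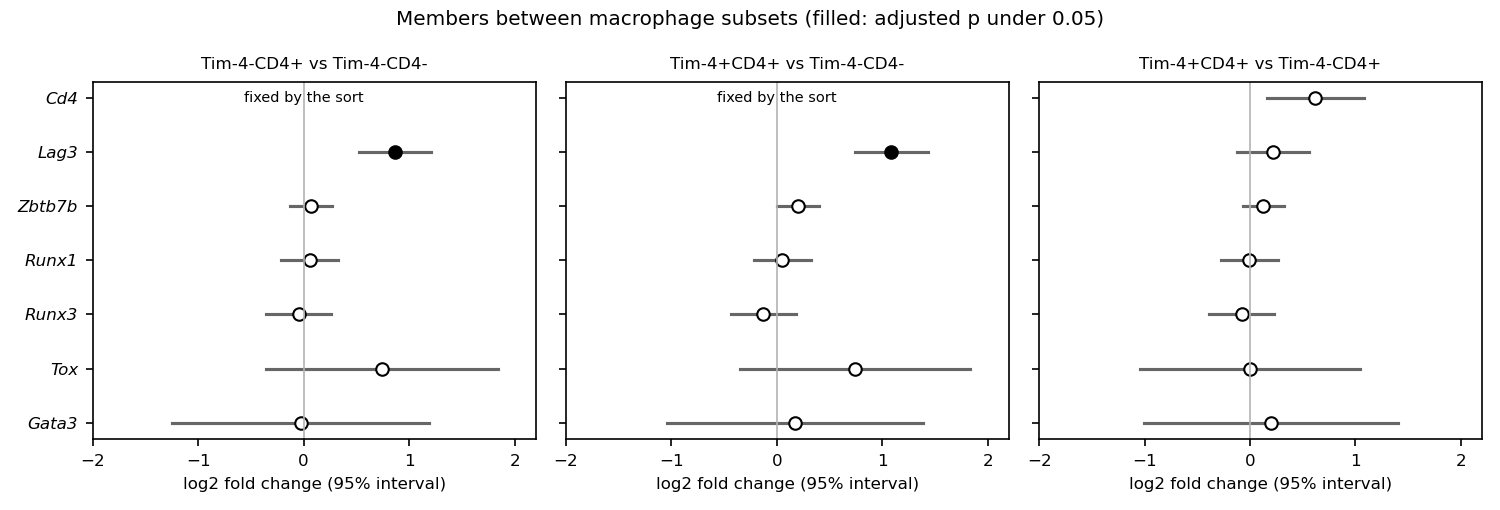
Log2 fold change (horizontal axes) with its 95% interval for each member in the 3 comparisons of macrophage subsets, filled where the adjusted p was under 0.05. Lag3 is the filled point in the first and second panels, Zbtb7b, Runx1 and Runx3 have short intervals near 0, and Tox and Gata3 have intervals that span more than 2 units.

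The balance of the regulators was examined within libraries. Zbtb7b counts exceeded Runx3 counts 3.34 ± 0.350-fold in monocytes (SD, n = 3), whereas in the 3 macrophage subsets the ratio was 0.742 ± 0.0761, 0.813 ± 0.0872 and 0.930 ± 0.103 (n = 4 each). The monocytes stood apart from the macrophages, whose subsets overlapped. The log2 ratio was 0.32 higher in Tim-4+CD4+ than in CD4- macrophages, which did not pass (exact permutation test, p = 0.0857, adjusted p = 0.30). The ratio of Runx1 to Runx3 counts was 1.82 ± 0.263 in monocytes and 1.74 ± 0.117, 1.93 ± 0.387 and 1.97 ± 0.241 in the 3 macrophage subsets (adjusted p = 0.35 to 0.86 between subsets).

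**Figure D3:**
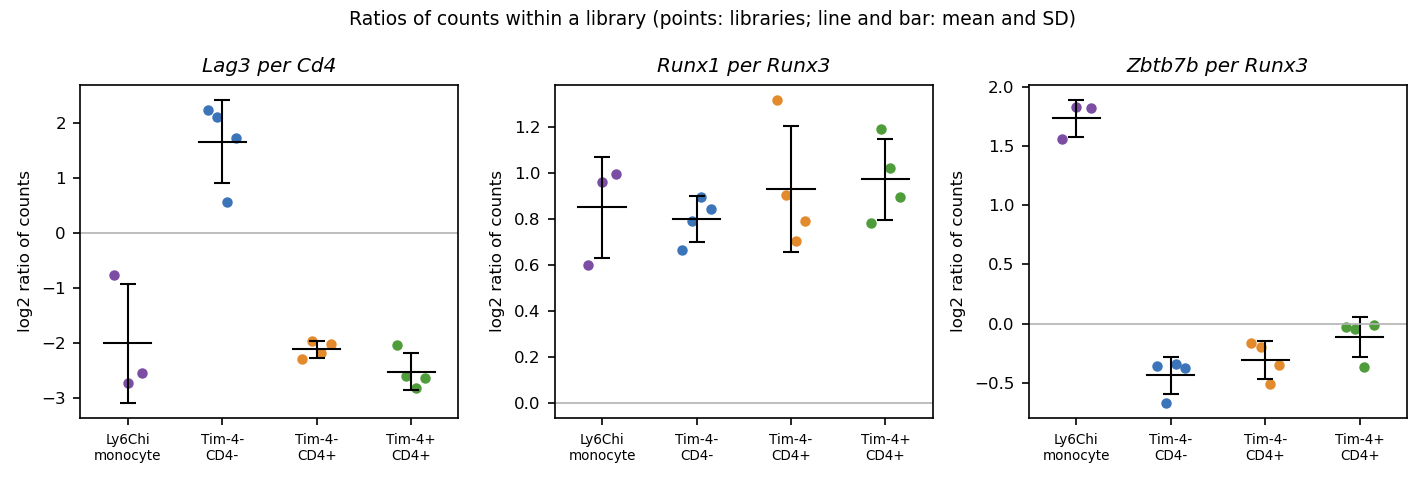
Log2 ratio of counts within a library (vertical axes) for Lag3 per Cd4, Runx1 per Runx3 and Zbtb7b per Runx3, with points for libraries and lines and bars for mean and SD. Lag3 per Cd4 dropped by 3.78 from CD4- to Tim-4-CD4+ macrophages, Runx1 per Runx3 overlaps in all populations, and Zbtb7b per Runx3 separates monocytes from macrophages.

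Tox, needed for CD4 T cells to form in the thymus, was near the floor of the assay. Monocytes had 8, 0 and 0 counts, CD4- libraries 0.292, 0.335, 0.539 and 0.259 CPM, Tim-4-CD4+ libraries 0.550, 0.632, 0.678 and 0.533 CPM, and Tim-4+CD4+ libraries 0.526, 0.628, 0.740 and 0.498 CPM. The CD4+ libraries were mostly above the CD4- libraries and overlapped them through CD4- replicate 3. The difference was 0.74 against CD4- for each CD4+ subset (SE 0.52, 95% intervals -0.35 to 1.84 and -0.35 to 1.83, adjusted p = 0.45 and 0.33).

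Gata3, which encodes the zinc finger factor that induces Zbtb7b in thymocytes, was as low. Monocytes had 7, 6 and 0 counts, CD4- libraries 0.529, 1.14, 0.302 and 0.285 CPM, Tim-4-CD4+ libraries 0.385, 0.379, 1.23 and 0.236 CPM, and Tim-4+CD4+ libraries 0.613, 0.697, 0.643 and 0.614 CPM. The subsets overlapped, with single libraries far above the rest of CD4- and Tim-4-CD4+, and the differences of -0.03 and 0.17 against CD4- had SEs of 0.58 and 0.57. Their 95% intervals, -1.25 to 1.19 and -1.04 to 1.38, take in differences of the size seen in Lag3. Tox and Gata3 averaged 0.356 to 0.642 CPM in the 3 subsets, below Cd3e at 0.787 to 2.44 CPM, and whether they came from macrophages or from a few T or innate lymphoid cells, whose summed markers are given above, was not tested.

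All 7 members were called between each macrophage subset and monocytes, 6 higher and Zbtb7b lower. The Cd4 calls of the CD4+ subsets follow from the sort on CD4 protein and are not read as a result. Of all genes tested, 65.4%, 69.8% and 70.9% were called for the 3 subsets against monocytes, and 37.3%, 39.1% and 39.5% were higher, so a call there is common. Cd4 differed by 11.37 and 11.99 on the log2 scale in the CD4+ subsets, and Lag3 by 9.90, 10.76 and 10.98 in the 3 subsets. The Lag3 values rest on monocyte replicate 1, which held 17 of the 21 monocyte counts, and without it they were 11.29, 12.16 and 12.39. Tox differed by 3.82 to 4.56, and without monocyte replicate 1 it had no count left in monocytes. Gata3 differed by 3.76, 3.73 and 3.93, and the first was 3.17 without CD4- replicate 2 and the next 2.98 without Tim-4-CD4+ replicate 3, each still called.

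Levels of different genes were compared per kilobase of exon. In Tim-4+CD4+ macrophages, Cd4 stood at 202 ± 20.1 CPM per kb, followed by Lag3 at 68.0 ± 13.1, Runx3 at 36.7 ± 5.55, Zbtb7b at 30.2 ± 3.23, Runx1 at 30.1 ± 5.61, Gata3 at 0.161 ± 0.00993 and Tox at 0.0786 ± 0.0145 (SD, n = 4). In monocytes Zbtb7b led with 41.9 ± 1.51 CPM per kb, ahead of Runx3 with 14.1 ± 1.13 and Runx1 with 10.6 ± 0.835 (n = 3). Zbtb7b thus went from first among these genes in monocytes to a level within the spread of Runx1 in Tim-4+CD4+ macrophages.

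The likeness of a gene to Cd4 was measured as the root mean square difference of standardized log2 CPM over the 15 libraries, as a description with no test, over libraries that fall into 4 populations. Among 11797 genes of at least 1 mean CPM, Lag3 ranked 789, Runx1 1779, Runx3 2629 and Zbtb7b 8142. Over the 12 macrophage libraries alone, Lag3 ranked 223, Zbtb7b 2483, Runx1 4290 and Runx3 6827. Tox, which is under that level and so rests on few counts, stood at rank 567 over the 15 libraries, nearer to Cd4 than Lag3, and at rank 462 over the 12, and Gata3 at ranks 2706 and 4612. Lag3 was the nearest of the 4 members of at least 1 mean CPM on either set, and the RUNX genes lost rank once monocytes were left out. Nearest to Cd4 over the 15 libraries were Mpp6, Armc8, Btnl7-ps and Csf1r (the receptor for the macrophage growth factor). Mpp6 averaged 81.8, 142 and 152 CPM in the 3 subsets. Nearest to Lag3 were Mmp2, Dnase1l3, Lgmn, C6 and Zmynd15, and Mmp2, a matrix protease, averaged 0.0953 CPM in monocytes and 131, 284 and 298 CPM in the subsets. Maf, the transcription factor c-MAF, was nearest to Runx1, Tagap to Runx3 and Rfx1 to Zbtb7b.

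Since Lag3 lies beside Cd4, the 10 protein-coding genes on each side of Cd4 on chromosome 6 were read as a list, of which 18 of 20 passed the filter. Lag3, the gene that prompted the list, is counted among the 18. The shares below include its calls and are not read as an excess. In Tim-4-CD4+ against CD4- macrophages, 2 rose (Lag3 and Pianp) and 1 fell (Tpi1), which is 16.7% of 18 against 10.1% of all genes, with a median log2 fold change of 0.02 against -0.0029 over all genes. In Tim-4+CD4+ against CD4- macrophages, 4 rose (Lag3, Pianp, Ing4 and Acrbp) and 3 fell (Tpi1, Cdca3 and Gpr162), 38.9% against 23.1% of all genes, with a median of 0.05 against -0.0047. Without CD4- replicate 2, and likewise without Tim-4+CD4+ replicate 4, 4 neighbors were called in place of 7. For the CD4+ subsets, 0 of 18 were called by edgeR, 4 had an unadjusted p under 0.05, and DESeq2 called 1 of 20. Against monocytes, 10, 9 and 11 of the 18 neighbors rose and 6, 5 and 3 fell in the 3 subsets, where 65.4%, 69.8% and 70.9% of all genes were called. Pianp (log2 7.88, 8.65 and 8.29) and P3h3 (6.10, 6.31 and 6.36) were among those that rose with Cd4 from monocytes, as was Gpr162.

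Gpr162, the nearest gene at 0.709 kb from Cd4 on the other side from Lag3, did not rise with Cd4 between macrophage subsets. It averaged 26.2 ± 6.33 CPM in CD4-, 26.6 ± 9.40 CPM in Tim-4-CD4+ and 16.6 ± 1.09 CPM in Tim-4+CD4+ macrophages (SD, n = 4 each), and had 1 count in the 3 monocyte libraries, so that it was higher in each subset than in monocytes, as Cd4 was. It fell by 0.66 in Tim-4+CD4+ against CD4- macrophages (adjusted p = 0.028). P3h3, at 6.94 kb, averaged 21.6 ± 1.43, 25.1 ± 1.90 and 25.9 ± 1.57 CPM in the 3 subsets and did not pass between any of them, nor did Ptms, next beyond Lag3 at 25.5 kb, with 543 ± 52.9, 506 ± 102 and 528 ± 72.7 CPM. Pianp, at 108 kb, had 30.3 to 36.6, 46.8 to 65.1 and 38.8 to 52.0 CPM in the libraries of the 3 subsets, a rise of 0.76 (adjusted p = 0.0019) and 0.41 (adjusted p = 0.046). Tpi1, a glycolytic enzyme, fell by 0.43 and 0.41 (adjusted p = 0.027 and 0.017). Ing4 and Acrbp, which lie next to each other at 152 and 161 kb, rose by 0.94 (adjusted p = 0.0020) and 0.75 (adjusted p = 0.0083) in Tim-4+CD4+ against CD4- macrophages. Lag3 and Pianp were separated by 3 genes that did not pass in either comparison (Ptms, Mlf2 and Cops7a).

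**Figure D4:**
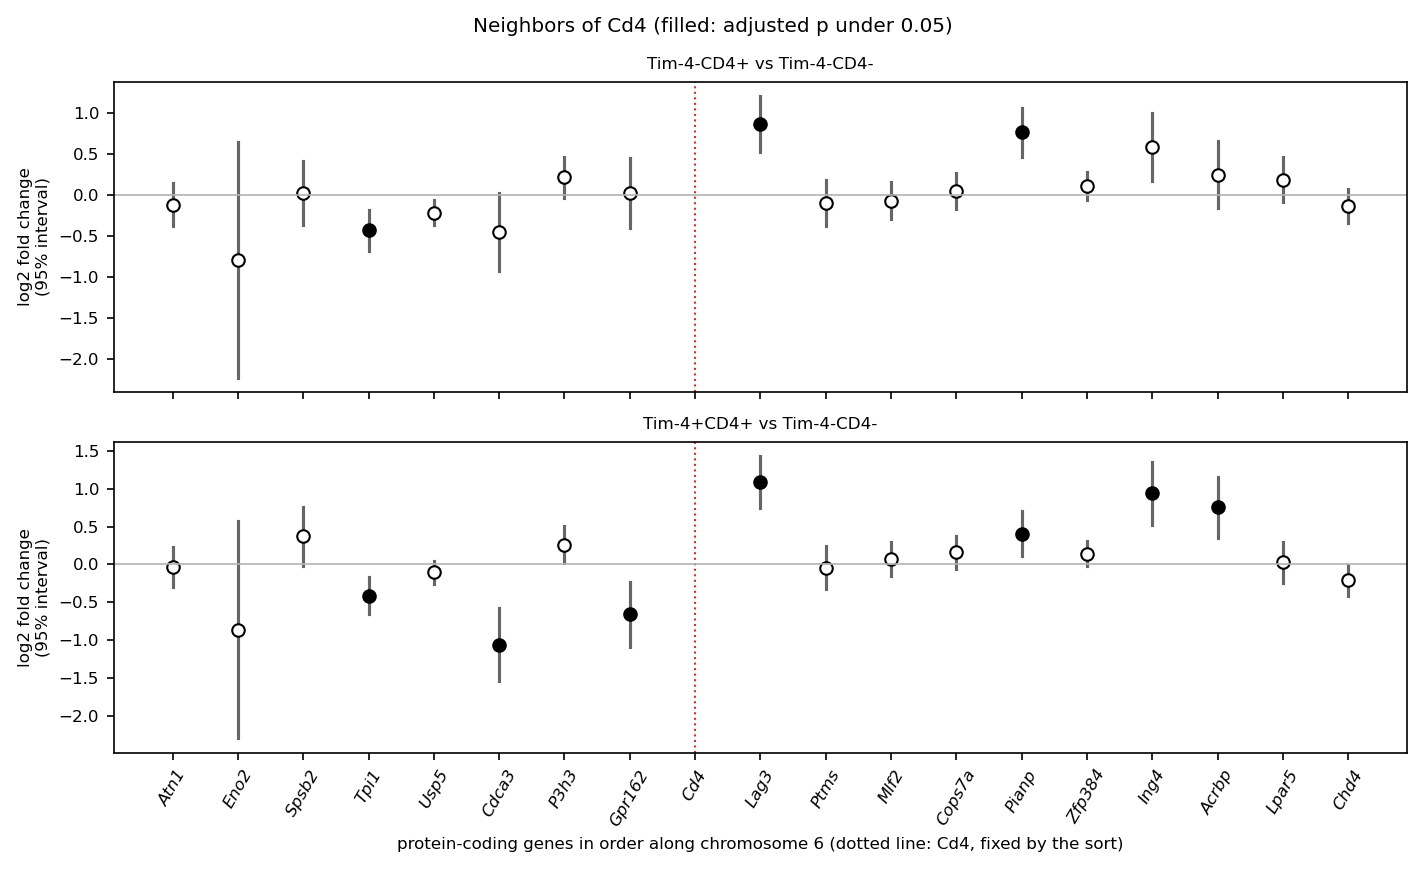
Log2 fold change (vertical axes) with 95% interval of the 18 tested neighbors of Cd4, in gene order along chromosome 6, for each CD4+ subset against CD4- macrophages, filled where the adjusted p was under 0.05. Lag3 and Pianp are filled above 0 in both panels and Tpi1 below 0 in both, and Ing4 and Acrbp are filled above 0 in the second panel.

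A further 26 factors tied to Cd4 regulation in T cells, among them partners of RUNX and ThPOK, E proteins, TCF/LEF factors, chromatin remodelers and DNA methylation enzymes, were all tested. In Tim-4-CD4+ against CD4- macrophages, 1 rose (Hes1, a target of Notch), 1 fell (Satb1, a chromatin organizer of thymocytes) and 24 did not pass, so that 7.69% were called against 10.1% of all genes (median -0.09 against -0.0029 over all genes). Without 1 library at a time the count of calls ran from 1 to 5, with 4 without Tim-4-CD4+ replicate 3, 5 without Tim-4+CD4+ replicate 1 and 1 without any of 10 others. Those 10 were all 3 monocyte libraries, replicates 1 and 4 of CD4-, replicates 1 and 2 of Tim-4-CD4+, and replicates 2, 3 and 4 of Tim-4+CD4+. In Tim-4+CD4+ against CD4- macrophages, 1 rose (Hes1), 6 fell (Satb1, Tle3, Cbfb, Ikzf1, Smarce1 and Tcf3) and 19 did not pass, so that 26.9% were called against 23.1% of all genes (median -0.19 against -0.0047). Without CD4- replicates 1, 2, 3 and 4 in turn, 4, 4, 3 and 3 were called. From one CD4+ subset to the other 1 of 26, Satb1, fell and none rose (3.85% against 3.41% of all genes). These shares were near those of all genes.

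Satb1 was the factor called in each of the 3 comparisons of subsets. It averaged 16.9 ± 3.67 CPM in monocytes (SD, n = 3) and 9.45 ± 1.25, 4.32 ± 0.531 and 1.25 ± 0.396 CPM in the 3 subsets (n = 4 each), in an order opposite to that of Cd4. On the log2 scale it fell by 1.12 in Tim-4-CD4+ (adjusted p = 0.0015) and fell by 2.90 in Tim-4+CD4+ against CD4- macrophages (adjusted p = 6.7e-08), and it fell by 1.78 from one CD4+ subset to the other (adjusted p = 5.6e-05). Hes1 averaged 204 ± 36.9, 274 ± 40.4 and 274 ± 29.1 CPM in the 3 subsets, with differences of 0.42 and 0.43 against CD4- (adjusted p = 0.043 and 0.022) and overlapping libraries.

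The RUNX partner Cbfb, the common subunit that RUNX proteins bind DNA with, averaged 121 ± 6.47, 107 ± 6.70 and 91.0 ± 16.1 CPM in the 3 subsets and fell by 0.41 in Tim-4+CD4+ against CD4- macrophages (adjusted p = 0.012). Tle3, a corepressor, fell by 0.51 (adjusted p = 0.0037), Ikzf1 (Ikaros) fell by 0.34 (adjusted p = 0.034), Smarce1 of the BAF remodeling complex fell by 0.25 (adjusted p = 0.039) and the E protein Tcf3 fell by 0.23 (adjusted p = 0.034). Factors of the T lineage itself were scarce, with Tcf7 at 1.32, 2.14 and 1.63 CPM in the 3 subsets and Bcl11b at 1.22 CPM or less, and neither passed between them. Zbtb7a, the closest relative of Zbtb7b, averaged 258 CPM in monocytes and 144, 146 and 153 CPM in the subsets.

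**Figure D5:**
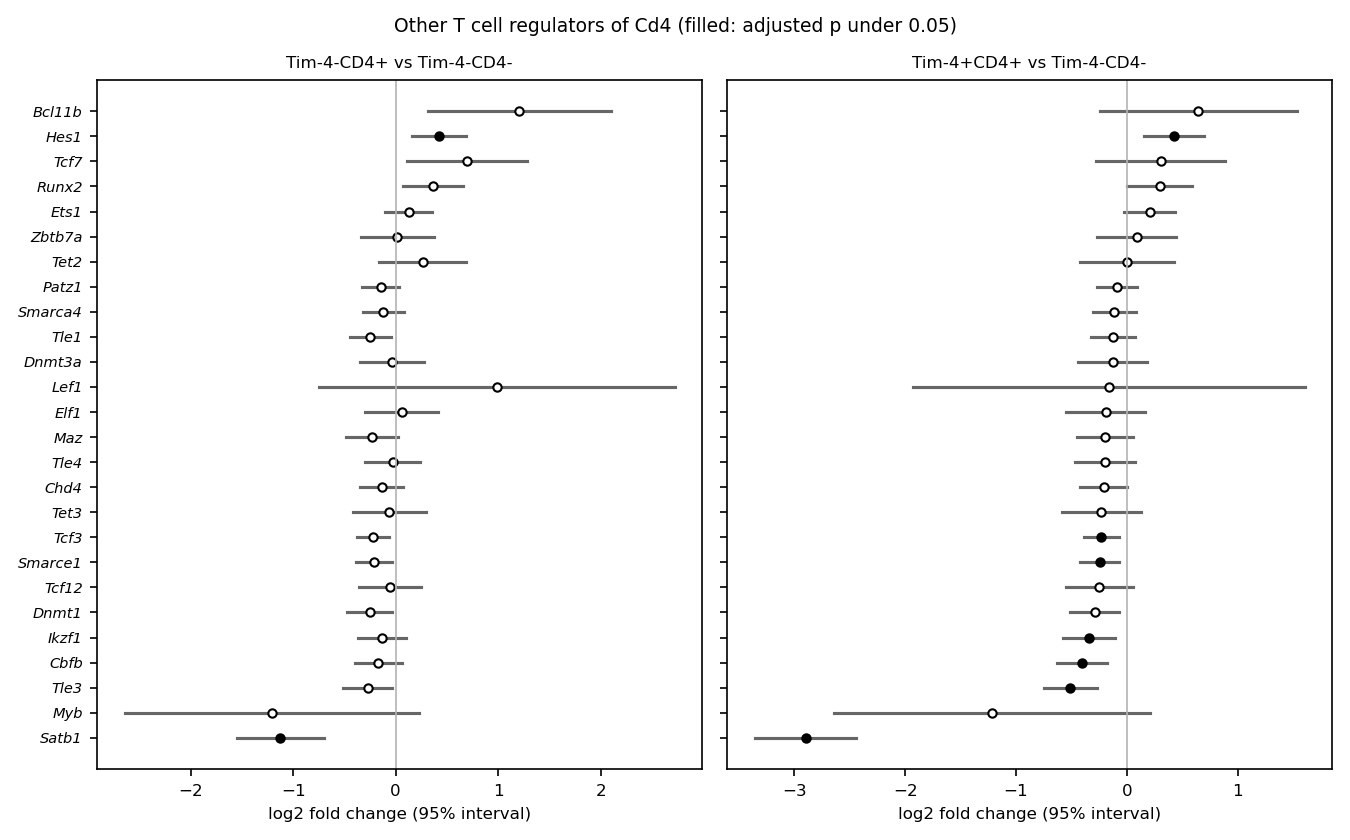
Log2 fold change (horizontal axes) with 95% interval of 26 other T cell regulators of Cd4 in each CD4+ subset against CD4- macrophages, filled where the adjusted p was under 0.05. Satb1 lies lowest in the second panel at -2.90 and Hes1 is filled above 0 in both panels, and the 24 unfilled points of the first panel and 19 of the second did not pass.

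Of 11 partners of CD4 and LAG3 (ligands, signaling and shedding enzymes), 9 were in the counts and tested. In Tim-4-CD4+ against CD4- macrophages, 0 were called by edgeR or DESeq2, with 2 at an unadjusted p under 0.05, and 1 was called without Tim-4-CD4+ replicate 3. For the CD4+ subsets the counts were again 0 by either tool, 2 unadjusted, and 1 without Tim-4-CD4+ replicate 3. In Tim-4+CD4+ against CD4- macrophages, 2 were called (22.2% against 23.1% of all genes), with 1, 0 and 1 without CD4- replicates 1, 3 and 4. Il16, a ligand of CD4, was higher at 150 ± 10.8 against 122 ± 11.8 CPM (log2 0.30, adjusted p = 0.019). Clec4g, a lectin that binds LAG3, was lower (adjusted p = 0.0083) at 0 counts in every Tim-4+CD4+ library against 19, 4, 13 and 2 counts, near the floor.

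The MHC class II genes, whose products both receptors bind, were abundant in every macrophage subset. H2-Ab1 averaged 13691 ± 863, 12730 ± 1377 and 12168 ± 2326 CPM against 149 ± 73.3 CPM in monocytes. Lck, the kinase that CD4 holds in T cells, averaged 1.28 ± 0.579, 2.21 ± 0.763 and 1.83 ± 0.558 CPM in the 3 subsets (SD, n = 4 each). Cd4 was thus abundant in CD4+ macrophages where Lck averaged 2.21 CPM or less.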

How the data were processed

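Total RNA of sorted cells was sequenced from stranded TruSeq mRNA libraries. The authors used Trimmomatic 0.36 for trimming and STAR for alignment to GRCm38.p4, and deposited the raw counts per gene that HTSeq 0.6.1p1 gave for uniquely mapped reads. The strand setting is not given in the sources used here. A further 15 normalized columns deposited beside them were not used.

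Populations and replicate numbers were taken from the sample titles. CPM was scaled by TMM. One edgeR 4.0.16 quasi-likelihood fit (R 4.3.3, limma 3.58.1) took all 15 libraries and 15802 genes passing filterByExpr, with 6 comparisons, Benjamini-Hochberg adjustment and a threshold of 0.05; it was tested on simulated data. Counting limits precision at the floor of 3 counts. Ratios used 0.5 added counts and exact permutation tests, adjusted over the 7 run, since Lag3 per Cd4 against the CD4- subset was left untested. DESeq2 1.42.0, other normalizations, filters, replicate blocks and each library left out were alternatives. Gene positions came from GENCODE M21. A gene named by the rule on likeness is not reported here.

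The members and lists were chosen with earlier results of these data known. Named were the members, listed genes passing between subsets, others with values only, and the 5 genes nearest to a member. Replicates of a population are numbered pools of mice by title, so p-values measure the spread between these libraries. The paper describes independent sorts from pooled intestines. Whether the macrophage subsets of a sort shared mice is not stated in the titles, and the main tests took the libraries as unpaired. Named cell markers carried no test.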

Additional observations from a re-analysis of the deposited data

Results flagged for a closer look

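Of 30 groups of 4 libraries examined (members and ratios), 6 held a library whose gap to its nearest neighbor took a larger share of the range of the group than Dixon's 95% value. Chance gives such a library in about 1 group of 20 when groups are independent and values normally distributed. The ratios reuse the counts of the members, so these groups are not independent, and the 6 are not read as an excess. Lag3 was lowest in Tim-4-CD4+ replicate 1, at 98.4 CPM against 128 CPM in the next library, and highest in Tim-4+CD4+ replicate 1, at 185 CPM against 133 CPM. Runx3 was highest in CD4- replicate 2, at 236 CPM against 191 CPM, and Gata3 in Tim-4-CD4+ replicate 3, at 1.23 CPM against 0.385 CPM. The log2 ratio of Zbtb7b to Runx3 was lowest in CD4- replicate 2, at -0.67 against -0.37 in the next library, and in Tim-4+CD4+ replicate 3, at -0.37 against -0.04.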

How the results depend on the processing

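The calls of Lag3 in both CD4+ subsets over CD4- and the 7 calls against monocytes kept their direction and side of the threshold under each alternative in which the gene was tested; Tox and Gata3 had no value with a filter of at least 1 mean CPM. The differences of the other factors between subsets did not pass under any alternative, and small ones changed sign. With libraries left out in turn, the log2 difference of Tim-4-CD4+ over CD4- ran from -0.0046 to 0.14 for Zbtb7b, from -0.011 to 0.14 for Runx1, from -0.21 to 0.065 for Runx3 and from -0.79 to 0.58 for Gata3. That of Tim-4+CD4+ over CD4- ran from -0.045 to 0.16 for Runx1 and from -0.032 to 0.78 for Gata3. Between the CD4+ subsets it ran from -0.10 to 0.11 for Runx1, from -0.18 to 0.086 for Runx3, from -0.10 to 0.078 for Tox, from -0.066 to 0.97 for Gata3 and from 0.57 to 0.69 for Cd4, and the log2 ratio of Runx1 to Runx3 from -0.033 to 0.17. Runx1 between the CD4+ subsets was 0.018 with upper-quartile normalization and 0.0093 with at least 1 mean CPM. Tox there was -0.00065 with every gene of at least 1 count and -0.0055 with only the populations compared in the fit, which gave 0.61 for Cd4 and 1 called member, and 4 regulators called between Tim-4+CD4+ and CD4-. With libraries left out, 0 to 1 members were called between the CD4+ subsets, 1 to 5 regulators in Tim-4-CD4+ and 3 to 8 in Tim-4+CD4+ over CD4-, 0 to 1, 0 to 3 and 0 to 1 partners in the 3 subset comparisons, and 4 to 7 neighbors in Tim-4+CD4+ over CD4-. DESeq2 called 5 neighbors between Tim-4-CD4+ and CD4- and 1 between the CD4+ subsets, and with at least 1 mean CPM 1 partner was called between Tim-4+CD4+ and CD4-, since Clec4g was then not tested. The cause of the other changes was not tested.

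Same-numbered libraries showed little likeness, which cannot decide whether they were paired, since differently numbered libraries were not compared. Deviations of same-numbered libraries correlated at -0.12 to 0.13 by title and -0.09 to 0.16 by description, which number the Tim-4-CD4+ libraries differently. With a replicate block by title numbers, Gata3 was 0.013 in Tim-4-CD4+ over CD4-, Tox was -0.0080 between the CD4+ subsets, and 1 regulator was called in Tim-4-CD4+ and 4 were called in Tim-4+CD4+ over CD4-. With a block by description numbers, 1 partner was called between Tim-4-CD4+ and CD4-.

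By likeness to Cd4 with log2 CPM centered and not scaled, Lag3 ranked 56, Runx1 2113, Runx3 2279 and Zbtb7b 8287, with Tox at 922 and Gata3 at 1272. Tox and Gata3 had at most 79 and 96 counts in a library, and the share of depth in their wide intervals was not tested.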

Other observations

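Some members were highest in the same library of a subset. In Tim-4-CD4+ replicate 3, 6 of the 7 members (all but Lag3) had their highest CPM of that subset, and that library also had the most T cell transcripts of any, with 24.3 CPM over the 16 genes. In CD4- replicate 2, Lag3, Runx1, Runx3 and Gata3 were highest, and the T cell sum of 12.3 CPM was the highest of that subset. In Tim-4+CD4+ replicate 3, Cd4, Runx1, Runx3 and Tox were highest, with a T cell sum of 16.5 CPM, level with replicate 1. CD4- replicate 3 was highest of its subset in Cd4 and Tox. Tim-4-CD4+ replicate 3, CD4- replicate 2 and Tim-4+CD4+ replicate 3 also had the lowest TMM factor of their subsets, at 0.943, 0.934 and 0.984. CPM is divided by this factor. How many of all genes were highest in these libraries was not counted. The part of T cell transcripts or of the scaling in these levels was not tested.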
